A study of Bos taurus with 6 samples.

Results

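The genes described here are the 10 genes of the nuclear arm and feedback loop of canonical Wnt signaling: CTNNB1, which encodes beta-catenin, the 4 TCF/LEF transcription factors (TCF7, LEF1, TCF7L1 and TCF7L2), the R-spondin receptors LGR4 and LGR5, and the feedback genes AXIN2, RNF43 and ZNRF3. They were chosen by name. All 10 were found among the 19163 genes of the deposited count table, and all 10 passed the filter on low counts. The study grew the bovine embryonic stem cell line F7, derived from a Holstein Friesian embryo fertilized in vitro, on mouse embryonic fibroblasts (MEFs) that had been treated with mitomycin C (MC-F7) or fixed with methanol (MT-F7). MC-F7 feeders were alive but no longer dividing, and MT-F7 feeders were dead. RNA-seq was performed on 3 libraries of each group, and the series gives 15 passages for both. The labels state no genetic change, and all cells came from this single line, so the comparison describes F7 and not bovine stem cells in general. Both groups received fibroblast growth factor and IWR1 in the medium and a ROCK inhibitor at passaging, and the medium was changed every day for MC-F7 and every other day for MT-F7. Before RNA extraction the dissociated cells were left on gelatin and the floating cells were collected.

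In canonical Wnt signaling, beta-catenin is held low by a destruction complex built on axin. Wnt ligands stop this complex, and beta-catenin then enters the nucleus and binds TCF/LEF proteins on their target genes. LEF1 and TCF7 are known mostly as activators, and TCF7L1 as a repressor in pluripotent cells. RNF43 and ZNRF3 are ubiquitin ligases that remove Frizzled receptors from the cell surface. R-spondins bind LGR4 or LGR5 and neutralise these ligases, which raises the sensitivity to Wnt. AXIN2, RNF43, ZNRF3, LEF1 and LGR5 are widely used as transcriptional targets of the pathway. IWR1 stabilizes axin through the tankyrases TNKS and TNKS2, so both groups were cultured with an inhibitor that acts above beta-catenin.

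Levels are given as normalised read counts relative to the TMM-scaled library size (CPM), and fold changes are MT-F7 over MC-F7. The libraries held 21958386 to 24933430 counted reads, and a gene was taken as detected above 3 counts, or 0.12 to 0.137 CPM. This limit and the Poisson intervals below cover counting error only. The transcripts of the mitochondrial genome took 16.3% to 28.3% of the counts, with the largest share in replicate 3 of each group. The pluripotency genes POU5F1, SALL4 and DNMT3B were detected in all 6 libraries. POU5F1 and DNMT3B were lower in MT-F7 (log2 fold change -1.19 and -1.20, adjusted p = 0.0012 and 2.5e-04 in edgeR's test). SOX2 was not analysed here. Separate cultures are not stated for the 3 libraries of each group, so the p values measure the spread between these libraries, which may be technical. Every fold change was tested with edgeR's quasi-likelihood test over 13001 genes with Benjamini-Hochberg adjustment, because with 3 libraries on each side the smallest two-sided exact permutation p is 0.1.

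LEF1, LGR4 and LGR5 rose in MT-F7, with an adjusted p under 0.05, and the other 7 genes did not pass. Thus 3 of 10 genes were called, all of them higher. LGR5 passed the filter on low counts only through its MT-F7 libraries. A gene at its level could be tested only if it was higher there, so its direction is not independent of the filter. Of all tested genes, 23.2% were called, 11.9% higher and 11.3% lower, so a count of 3 in 10 is near the background and is not read as a property of the group. The background share fell to 14.5% without MC-F7 replicate 2, and LEF1, LGR4 and LGR5 were still the members called. The 3 genes had been named by the study as upregulated in these same libraries, so their direction is not independent evidence. In these bulk libraries more cells with a transcript and more of it per cell cannot be told apart. The median log2 fold change of the 10 genes was 0.02, and it was 0.00 over all tested genes. In 5 genes the groups did not overlap, where this was so in 40.0% of all tested genes. In 4 of these, CTNNB1, LEF1, LGR4 and LGR5, the MT-F7 libraries were the higher ones (19.9% of all tested genes). In TCF7 the MT-F7 libraries were the lower ones (20.1%). The limit that the filter sets on the direction of LGR5 holds for the count of 4 as well.

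**Figure D1:**
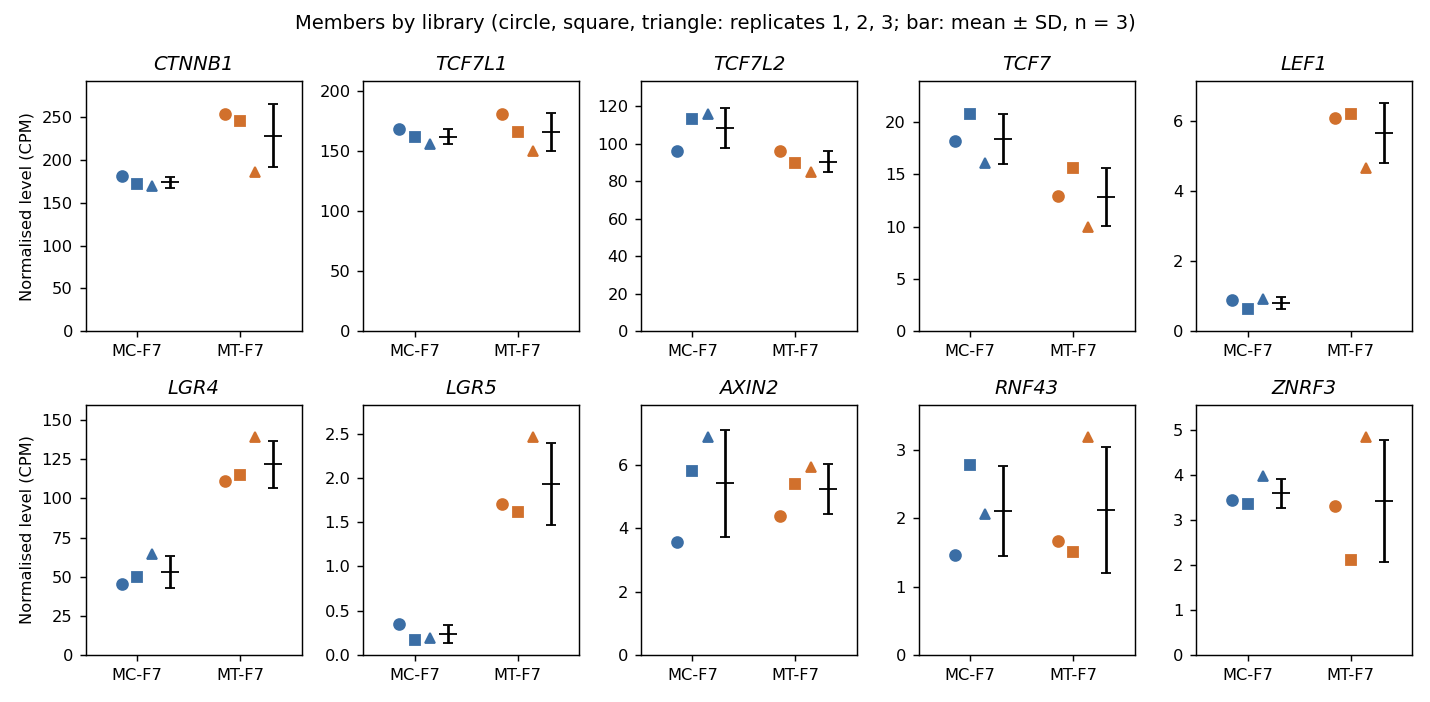
Normalised level (CPM, linear axis from 0, a different scale in each panel) of the 10 genes in each library of MC-F7 (blue) and MT-F7 (orange), with the mean and SD of 3 libraries in black. LEF1, LGR4 and LGR5 show a clear gap between the groups, and AXIN2, RNF43 and ZNRF3 overlap.

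LEF1 showed the smallest adjusted p of the 10 genes. LEF1 (Entrez gene 535399) was at 0.885, 0.622 and 0.935 CPM in the MC-F7 libraries and 6.10, 6.22 and 4.67 CPM in the MT-F7 libraries. Every MT-F7 library thus lay far above every MC-F7 library, although replicate 3 was the lowest of MT-F7. The fold change was 6.95 (95% interval 4.45 to 10.8; log2 fold change 2.80, standard error 0.297, adjusted p = 3.0e-05). LEF1 was measured from few reads in MC-F7, whose 3 libraries held 55 reads in all (95% Poisson interval 41.4 to 71.6) against 424 in MT-F7.

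TCF7, the other activating factor, had lower values in MT-F7. It (Entrez gene 782690) was at 18.2, 20.8 and 16.1 CPM in MC-F7 and at 12.9, 15.6 and 10 CPM in MT-F7. The groups did not overlap, but the gap between MC-F7 replicate 3 and MT-F7 replicate 2 was small. The log2 fold change was -0.52 with a 95% interval from -0.94 to -0.09 (adjusted p = 0.076), which did not pass. Without MT-F7 replicate 2 it was -0.68, with an adjusted p of 0.049 in edgeR's test. LEF1 thus passed and TCF7 did not, with values of opposite sign.

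TCF7L1, the main repressor-type factor of pluripotent cells (Entrez gene 515303), was expressed at 168, 162 and 156 CPM in MC-F7 and 181, 166 and 150 CPM in MT-F7. Replicate 3 was the lowest library in both groups, and the groups overlapped. Its log2 fold change was 0.03, with a 95% interval from -0.28 to 0.35 (adjusted p = 0.89), so changes of TCF7L1 between 0.824-fold and 1.27-fold lay within the interval. TCF7L2, a factor that can activate or repress (Entrez gene 540481), was at 95.9, 113 and 116 CPM in MC-F7 and 96.2, 89.9 and 85.1 CPM in MT-F7. MC-F7 replicate 1 lay among the MT-F7 libraries. Its log2 fold change was -0.26, with a 95% interval from -0.58 to 0.05 (adjusted p = 0.22), and did not pass.

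**Figure D2:**
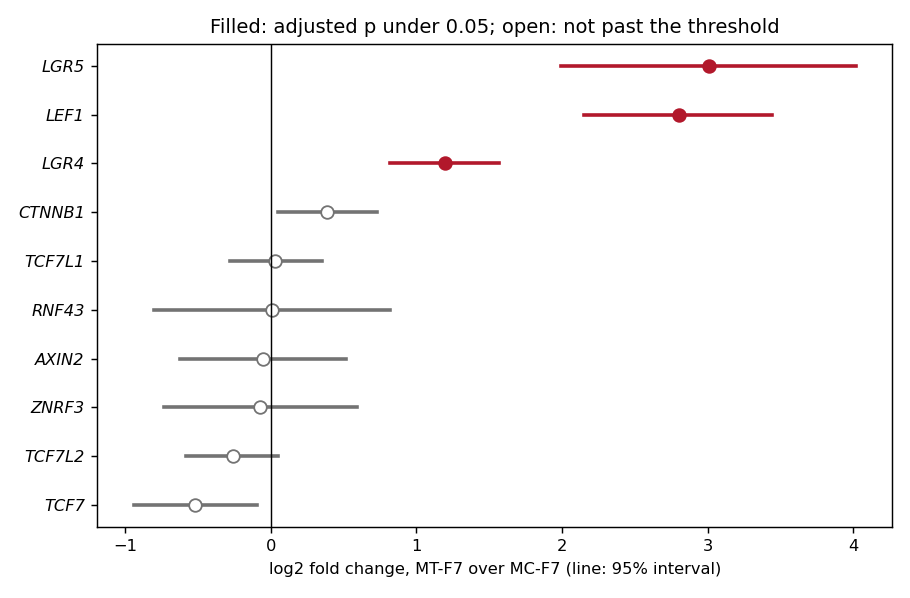
Log2 fold change of MT-F7 over MC-F7 for the 10 genes, with 95% intervals from edgeR's quasi-likelihood fit. LGR5 (3.01), LEF1 (2.80) and LGR4 (1.20) are filled and lie well to the right of 0, and the intervals of CTNNB1 and TCF7 miss 0 while their adjusted p values stay above 0.05.

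The make-up of the TCF/LEF transcripts was compared within each library, on the deposited TPM values, which correct for gene length. A share within a library does not depend on the scaling between libraries. LEF1 made up 0.386%, 0.264% and 0.409% of the summed TPM of the 4 factors in MC-F7, against 2.51%, 2.74% and 2.30% in MT-F7. The groups were separate, and the difference of 2.16 percentage points was larger than the SD within MC-F7 (0.0780) or within MT-F7 (0.218, n = 3 each). TCF7 made up 6.11% ± 0.678 in the MC-F7 libraries and 4.40% ± 0.797 in the MT-F7 libraries (SD, n = 3), also without overlap. For both factors the two-sided exact permutation p was 0.1, the smallest possible here, and 0.2 after adjustment over the 6 shares compared.

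TCF7L1 was the most abundant of the 4 factors in every library. It took 64.4% ± 2.64 of the pool in MC-F7 and 67.9% ± 0.723 in MT-F7, and TCF7L2 took 29.1% ± 2.80 and 25.1% ± 0.846 (SD, n = 3). Both overlapped between the groups (exact permutation p = 0.2 for each). Even in MT-F7, then, LEF1 and TCF7 together were a small part of the pool.

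**Figure D3:**
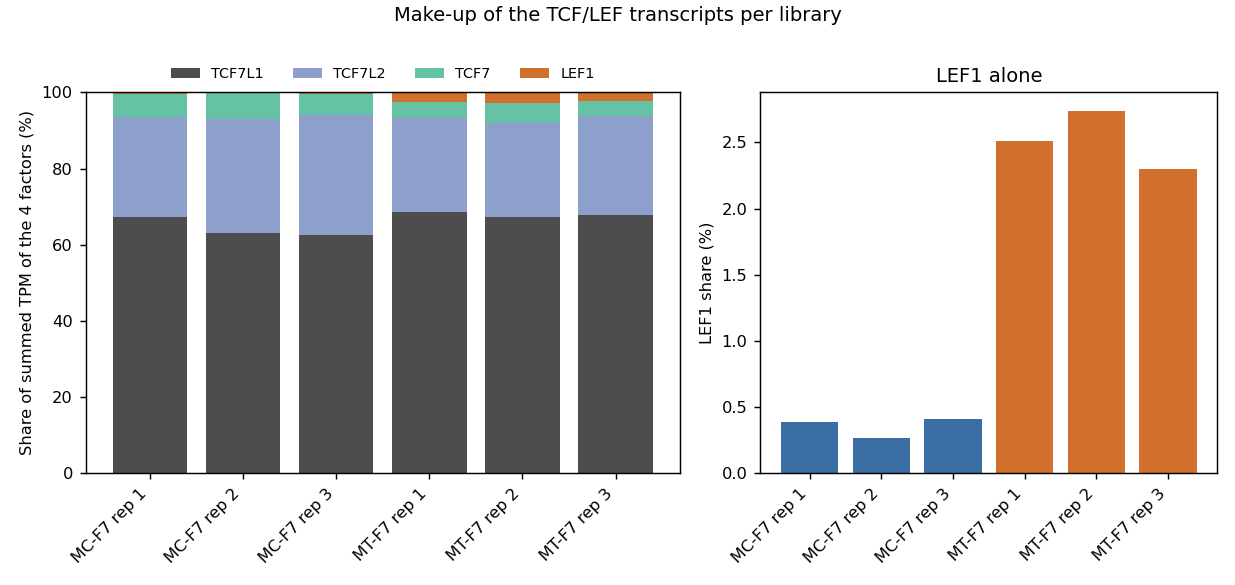
Share of each TCF/LEF factor in the summed TPM of the 4 factors for each library (left, stacked to 100%) and the share of LEF1 alone on its own axis from 0 (right). TCF7L1 is the largest part in all libraries, and LEF1 lies at or below 0.409% in MC-F7 and at or above 2.30% in MT-F7.

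CTNNB1 (Entrez gene 539003) was at 181, 172 and 169 CPM in MC-F7 and at 254, 245 and 186 CPM in MT-F7. All MT-F7 libraries lay above the MC-F7 libraries, but replicate 3 of MT-F7 was much closer to MC-F7 than to the other MT-F7 libraries. The log2 fold change was 0.39 (standard error 0.158, unadjusted p = 0.029, adjusted p = 0.095 in edgeR's test), a fold change of 1.31 (95% interval 1.03 to 1.66) that did not pass. CTNNB1 passed under some alternatives. With all libraries and a replicate block the adjusted p was 0.027. Without MT-F7 replicate 3 the log2 fold change was 0.51 with an adjusted p of 0.018. With replicate 3 of both groups left out, a setting chosen after seeing the data, the adjusted p in edgeR's test was 0.003. In that fit 4 members were called. MT-F7 replicate 3 also had the largest mitochondrial share of its group (27.9%, against 23.2% and 18% in the other MT-F7 libraries), and the part of this in the CTNNB1 value was not tested. With the mitochondrial genes removed the log2 fold change of CTNNB1 was again 0.39. Removing these genes hardly alters the ratio of another gene, so that fit does not test this part. These are transcript levels, and beta-catenin is regulated mainly through the stability of the protein.

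LGR4, the more widely expressed of the R-spondin receptors (Entrez gene 505423), rose from 45.1, 49.5 and 64.4 CPM in MC-F7 to 111, 115 and 139 CPM in MT-F7. The lowest MT-F7 library was above the highest MC-F7 library, and replicate 3 was the highest of each group. The fold change was 2.29 (95% interval 1.77 to 2.97; log2 fold change 1.20, standard error 0.173, adjusted p = 3.2e-04). With 3592 reads in MC-F7 and 9017 in MT-F7, LGR4 was the best measured of the 3 called genes.

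LGR5, which marks stem cells in several adult epithelia, rose from a level near the limit of detection. LGR5 (Entrez gene 520189) was at 0.354, 0.166 and 0.187 CPM in MC-F7, from 8, 4 and 4 reads, and 1.71, 1.62 and 2.46 CPM in MT-F7, from 43, 42 and 58 reads. The MC-F7 libraries were close to the limit of 3 counts, and the groups were widely separated. The log2 fold change was 3.01 (standard error 0.469, adjusted p = 5.7e-04), an 8.05-fold rise with a 95% interval from 3.98 to 16.3. LGR5 passed the filter on low counts only through its MT-F7 libraries, so a gene at its level could be tested only if it was higher there. LGR5 took 0.711% ± 0.410 of the summed TPM of LGR4 and LGR5 in MC-F7 against 2.35% ± 0.265 in MT-F7 (SD, n = 3; exact permutation p = 0.1, the smallest possible). LGR4 was thus the more abundant of the pair in both groups.

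The feedback genes did not pass in either direction. AXIN2, the inducible axin (Entrez gene 511619), was at 3.58, 5.80 and 6.87 CPM in MC-F7 and 4.38, 5.41 and 5.94 CPM in MT-F7. The 3 MT-F7 values lay within the range of the MC-F7 values. The log2 fold change was -0.05 with a 95% interval from -0.62 to 0.52 (adjusted p = 0.92), so changes of AXIN2 between 0.651-fold and 1.44-fold lay within the interval.

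RNF43 (Entrez gene 784035) was at 1.46, 2.78 and 2.06 CPM in MC-F7 and 1.67, 1.51 and 3.18 CPM in MT-F7. The order of the libraries was mixed between the groups. Its log2 fold change was 0.01 with a 95% interval from -0.80 to 0.82 (adjusted p = 0.99), the widest interval of the 3 ligase and axin genes. ZNRF3 (Entrez gene 535441) was at 3.45, 3.36 and 3.97 CPM in MC-F7 and 3.31, 2.12 and 4.84 CPM in MT-F7. The MT-F7 libraries spread to both sides of MC-F7. The log2 fold change was -0.07 with a 95% interval from -0.73 to 0.59 (adjusted p = 0.89). The signs of AXIN2, RNF43 and ZNRF3 were not stable, since each turned when single libraries were left out. RNF43 took 26.1% ± 6.76 of the summed TPM of RNF43 and ZNRF3 in MC-F7 against 27.6% ± 3.46 in MT-F7 (SD, n = 3; exact permutation p = 0.9).

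On the TPM scale, which allows levels of different genes to be compared, the order in MC-F7 was TCF7L1 (11.9 ± 0.987), CTNNB1 (7.77 ± 0.574), TCF7L2 (5.38 ± 0.605), LGR4 (1.97 ± 0.294) and TCF7 (1.13 ± 0.212; SD, n = 3), each separate from the next. AXIN2 (0.287 ± 0.0847) and ZNRF3 (0.240 ± 0.0104) followed and overlapped. RNF43 (0.0868 ± 0.0314) and LEF1 (0.0645 ± 0.0102) overlapped as well, and LGR5 (0.0134 ± 0.00580) was last. The deposited TPM values keep library size, so levels of genes are compared within a group only.

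In MT-F7 the order changed at a few places. LGR4 (4.95 ± 0.405 TPM) drew level with TCF7L2 (4.92 ± 0.473 TPM), and LEF1 (0.497 ± 0.0964 TPM) came to lie above AXIN2 and ZNRF3. CTNNB1 (11.2 ± 2.23 TPM) overlapped with TCF7L1 (13.3 ± 1.74 TPM). LGR5 (0.120 ± 0.0225 TPM) overlapped with RNF43 (0.0941 ± 0.0361 TPM), the lowest gene in this group. The transcripts of the target-type feedback genes were therefore scarce in both groups beside those of beta-catenin and TCF7L1.

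The rest of the pathway was read from 5 lists of 52 genes, of which 47 could be tested. Of these 47 genes, 16 passed, 9 higher and 7 lower in MT-F7, with a median log2 fold change of 0.00. Of all tested genes, 23.2% were called, 11.9% higher and 11.3% lower. The counts of the single lists below were not tested against these shares. RSPO3, APC2, CTNNBIP1, CTNNA2 and CDH1 had been named by the study from these libraries, and their direction is not independent evidence. PYGO2 and TLE1 were not analysed here.

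On the receptor side, 4 of 9 tested genes passed (23.2% of all tested genes), with 3 higher and 1 lower. RSPO3, a secreted R-spondin and ligand of LGR4 and LGR5, rose from 1.25 ± 0.239 to 3.69 ± 0.882 CPM (SD, n = 3), and its log2 fold change was 1.56 with a standard error of 0.315 (adjusted p = 0.0034). LGR6, the remaining LGR receptor, went the other way. It had 36, 46 and 47 reads in MC-F7 against 10, 15 and 15 in MT-F7, and its log2 fold change was -1.81 (standard error 0.391, adjusted p = 0.0051). The 3 LGR genes thus did not share a direction. LGR6 reached the low-count filter's minimum in 3 MC-F7 and 2 MT-F7 libraries. LGR5 reached it in 0 MC-F7 and 3 MT-F7 libraries, so only LGR5 passed through 1 group alone. DVL2 and DVL3, which pass the signal on from the receptors, both rose, by 0.65 and 0.49 on the log2 scale (adjusted p = 0.013 for DVL2 and 0.046 for DVL3). DVL3 passed in 1 and DVL2 in 5 of the 6 fits that left out 1 library. RSPO4 had 0 reads in all libraries.

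In the destruction complex, 2 of 11 genes passed (23.2% of all tested genes), in opposite directions. APC2, a scaffold protein of the complex, rose from 10.5 ± 2.52 to 21.6 ± 7.13 CPM (log2 fold change 1.04, adjusted p = 0.008), but did not pass with limma on log2(TPM + 1) (adjusted p = 0.068). CSNK1A1, the kinase that primes beta-catenin for destruction, fell from 26.2 ± 2.11 to 14.7 ± 0.642 CPM (log2 fold change -0.84, adjusted p = 0.002). AXIN1, the constitutive axin, had a log2 fold change of -0.29 (adjusted p = 0.21). The tankyrases, the enzymes acted on by IWR1, had log2 fold changes of opposite sign, -0.66 for TNKS and 0.70 for TNKS2 (adjusted p = 0.086 and 0.12), and neither passed.

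Among nuclear cofactors, CTNNBIP1 and TLE4 passed, and the other 9 tested genes did not. Both encode inhibitors of TCF/LEF activity. CTNNBIP1, which blocks the contact of beta-catenin with TCF proteins, rose from 28.1 ± 7.11 to 59.9 ± 2.98 CPM (log2 fold change 1.09, adjusted p = 0.0011). TLE4, a Groucho corepressor, rose from 22.2 ± 3.29 to 46.7 ± 4.20 CPM (log2 fold change 1.07, adjusted p = 5.2e-04). The related genes TLE2, TLE3 and TLE5 had lower values in MT-F7 and did not pass. Their log2 fold changes were -0.43, -0.15 and -0.27 (adjusted p = 0.22, 0.47 and 0.23 in edgeR's test).

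Among further genes known as targets of the pathway, 4 of 10 tested genes passed (23.2% of all tested genes), 3 of them lower in MT-F7. Of these 3, ASCL2 and NOTUM reached the low-count filter's minimum in 3 MC-F7 libraries and in 1 MT-F7 library. They thus met the filter mostly through the group where they were higher, and the count of 3 is given as a description. ASCL2, a stem cell factor, fell from 1.53 ± 0.524 to 0.276 ± 0.174 CPM (log2 fold change -2.43, adjusted p = 0.006). NOTUM, a secreted enzyme that inactivates Wnt ligands, fell from 1.26 ± 0.463 to 0.392 ± 0.157 CPM (log2 fold change -1.67, adjusted p = 0.025). APCDD1, a membrane inhibitor of Wnt, had a log2 fold change of -1.16 (adjusted p = 0.045), with overlapping groups. NKD2, a cytoplasmic inhibitor, was the gene that rose (log2 fold change 0.52, adjusted p = 0.041). NOTUM and APCDD1 passed in 2 each, and NKD2 in 1, of the 6 fits that left out 1 library. SP5 (-0.84, adjusted p = 0.48) and NKD1 (0.32, adjusted p = 0.55) did not pass. TBXT, the mesoderm factor, had at most 1 read in a library.

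**Figure D4:**
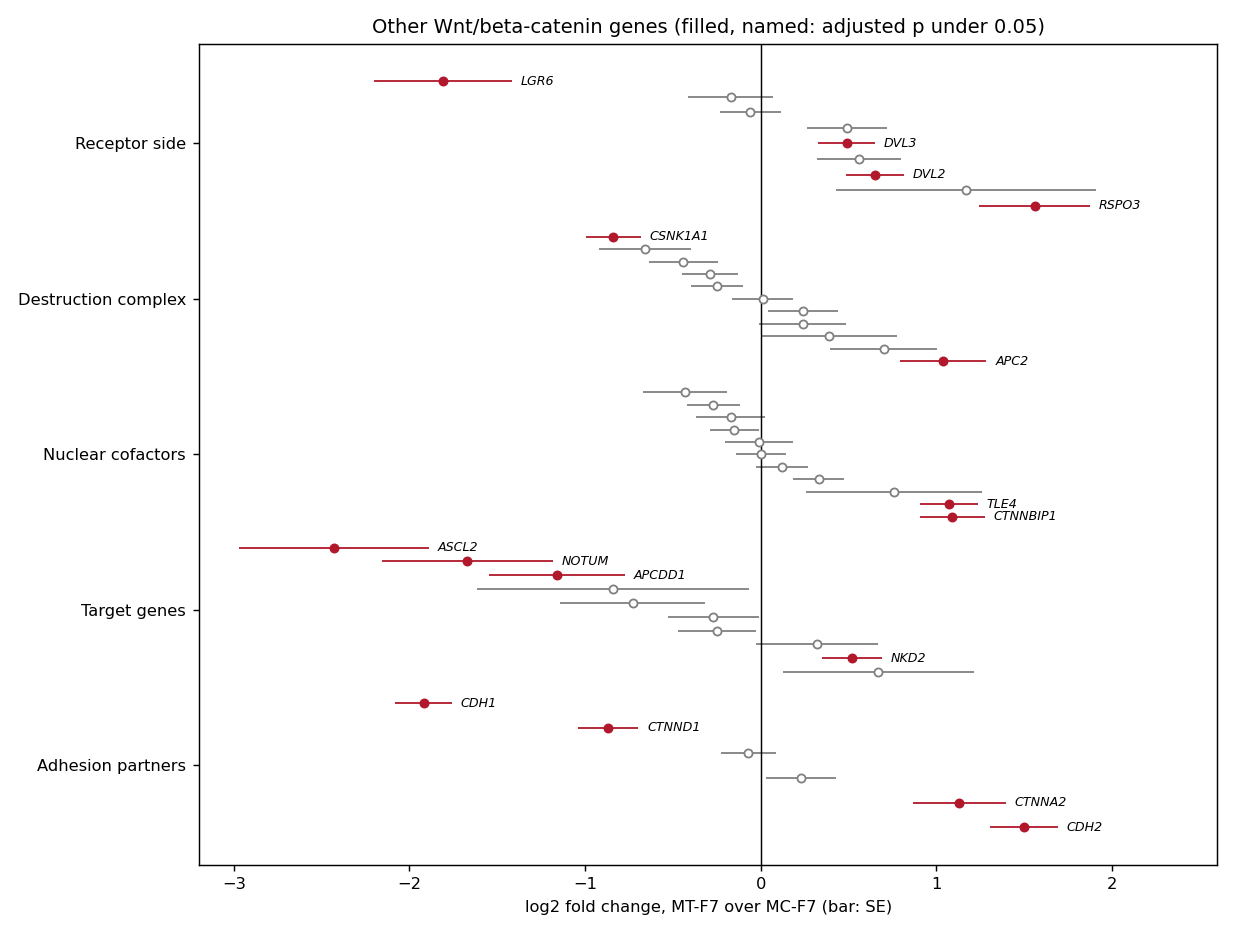
Log2 fold change of MT-F7 over MC-F7 with its standard error for the 47 tested genes of 5 Wnt pathway lists. The 16 filled and named genes passed at an adjusted p under 0.05, and they lie on both sides of 0 in each list except the nuclear cofactors, where CTNNBIP1 and TLE4 are both to the right.

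Beta-catenin is also the link between cadherins and the cytoskeleton, and there 4 of 6 genes passed (23.2% of all tested genes). The epithelial cadherin CDH1 fell from 371 ± 49.2 to 98.1 ± 9.17 CPM (log2 fold change -1.92, adjusted p = 5.2e-06), and the neural cadherin CDH2 rose from 107 ± 23.5 to 302 ± 44.9 CPM (log2 fold change 1.5, adjusted p = 1.4e-04). CTNND1, a catenin that stabilizes cadherins, fell (log2 fold change -0.87, adjusted p = 0.0031), and the alpha-catenin CTNNA2 rose (log2 fold change 1.13, adjusted p = 0.0079). Neither passed with limma on log2(TPM + 1) (adjusted p = 0.11 for CTNND1 and 0.077 for CTNNA2). JUP, the closest relative of CTNNB1, and CTNNA1 did not pass, at -0.07 and 0.23 on the log2 scale (adjusted p = 0.78 for JUP and 0.45 for CTNNA1).

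Markers of pluripotency and of other cell types were read from the same fit. Of all tested genes 23.2% were called, 11.9% higher and 11.3% lower. The summed level of 6 neuroectoderm markers was 414 to 481 CPM in MC-F7 and 1115 to 1227 CPM in MT-F7, and 5 of them, among these LHX2, SIX3 and SIX6, rose. Of 6 tested pluripotency markers 5 fell, namely POU5F1, NANOG, LIN28A, DNMT3B and DPPA4. The sum of the 6 was 1345 to 2014 CPM in MC-F7 and 738 to 854 CPM in MT-F7. The sum of 8 trophectoderm markers was 768 to 1125 CPM in MC-F7 and 195 to 215 CPM in MT-F7, and 3 of 6 tested fell. That sum was mostly the keratin KRT18, and the defining factor CDX2 had 0 reads in all libraries. The sum of 9 mesendoderm markers was 13.0 to 14.7 CPM in MC-F7 and 7.90 to 8.84 CPM in MT-F7, 2 of 3 tested fell, and GATA4 had 0 reads in all libraries. The sum of 14 fibroblast markers was 228 to 305 CPM in MC-F7 and 346 to 396 CPM in MT-F7, most of it COL1A1, and 4 of the 13 tested passed, 3 higher and 1 lower. Of the markers that fell, DPPA4, GATA2, FOXA2 and TWIST2 reached the low-count filter's minimum in 3 MC-F7 libraries but in fewer MT-F7 libraries. The MT-F7 libraries at the minimum were 0 for DPPA4, 1 each for GATA2 and FOXA2, and 2 for TWIST2. DPPA4 thus passed through MC-F7 alone, where it was higher, so its direction is not independent of the filter. The part of these markers in the values of LEF1, LGR4 and LGR5 was not tested.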

How the data were processed

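RNA of 3 MC-F7 and 3 MT-F7 libraries (total RNA, Illumina paired-end) was measured. After read filtering, the authors used HISAT2 2.0.5 with the bovine genome from Ensembl and featureCounts 1.5.0-p3 (versions from the submitters' processing notes). The deposited count table holds raw counts under Entrez gene identifiers. The genome build, and how reads from mouse feeder cells were handled, are not given in the sources used here. The study reported a higher overall alignment rate in MT-F7 than in MC-F7, and proposed that fixed feeders lowered feeder cell contamination. Reads of mouse origin may thus differ between the groups, and their part in the values was not tested. The authors also deposited a table they call TPM, of which 21357 genes were used. The ratio of TPM to count was the same in all libraries (within 0.001 of its mean) for 9681 of 9682 genes whose lowest count was 50 or more, and these values therefore keep library size.

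Symbols were matched to 19074 of the 19163 Entrez identifiers through RefSeq ARS-UCD2.0. The filter on low counts was filterByExpr with a minimum count of 10 and a minimum total of 15, and edgeR 4.0.16 under R 4.3.3 was used with TMM, a two-sided quasi-likelihood test without a block and Benjamini-Hochberg adjustment over 13001 genes. The 95% intervals use its standard errors and degrees of freedom. The fits were tested on simulated data. Shares were compared by exact permutation tests (scipy 1.17.1). Alternatives were RLE factors, library size only, DESeq2 1.42.0, other filters, removal of 13 mitochondrial genes, a replicate block, each library left out, and limma 3.58.1 on log2(TPM + 1) and log2(TPM + 0.1). Leaving out both replicates 3 was chosen after seeing the data. The members and lists were chosen with earlier results of these data known. All 10 members are named. In each other pathway list, up to 6 passing genes with the largest changes are named, and in addition TNKS, TNKS2, AXIN1, JUP, CTNNA1, SP5, NKD1 and NOTUM. A few further genes are named as examples of marker lists, because they had almost no reads, or beside TLE4 (TLE2, TLE3 and TLE5). These were chosen after their values were seen. No sequences are shown.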

Additional observations from a re-analysis of the deposited data

How the results depend on the processing

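LEF1 and LGR4 passed under every alternative that could test them, and LGR5 in each of the 15 that kept it. The filter of 10 counts in every library removed LGR5. The filter on a mean TPM of at least 1 left 7418 genes and 5 members. Of these, 1310 genes passed in all, among them 1 member (LGR4). Over the 6 fits without 1 library, the log2 fold change was 2.63 to 2.91 for LEF1, 1.08 to 1.35 for LGR4 and 2.79 to 3.42 for LGR5, 3 or 4 members passed, and between 1914 (without MC-F7 replicate 2) and 3093 genes passed in all, against 3016 with every library. The deposited TPM values tested with limma on log2(TPM + 1), which keep library size, gave 1395 higher and 723 lower genes, where the counts gave 1553 and 1463.

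In the fit with a replicate block, 4674 genes and 5 members passed, CTNNB1 (0.38, adjusted p = 0.027) and TCF7 (-0.53, adjusted p = 0.0084) being added. Same-numbered libraries share only a number in the labels. The correlations of their deviations from the group means were 0.188, 0.0893 and 0.544 for replicates 1, 2 and 3, and 2 of the 6 libraries correlated best with their own number.

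Signs turned only in genes that did not pass. Without 1 library, AXIN2 ran from -0.27 to 0.15, RNF43 from -0.41 to 0.27, ZNRF3 from -0.41 to 0.18, TCF7L1 from -0.04 to 0.10 and JUP from -0.19 to 0.01. Without both replicates 3, AXIN2 was 0.07 and RNF43 was -0.40, and with the block RNF43 was -0.02. On log2(TPM + 1) and log2(TPM + 0.1), AXIN2 was 0.02 and 0.08, ZNRF3 was 0.01 and 0.0026, and JUP was 0.05 and 0.06, and JUP was 0.05 with the TPM filter. The cause was not tested. Shares of counts, with no length correction, gave a difference of 1.77 percentage points for LEF1 and 1.09 for LGR5, and without 1 library the RNF43 share difference ran from -1.30 to 5.23. Of the 16 called pathway genes, 11 passed in every fit without 1 library. With limma, 6 of the 16 did not pass on log2(TPM + 1), namely APC2, APCDD1, ASCL2 (adjusted p = 0.053), CTNNA2, CTNND1 and NOTUM, and 2 did not on log2(TPM + 0.1), namely APCDD1 (0.21) and CTNND1 (0.072).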
